A study of Mus musculus with 16 samples.

Results

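The cytosolic ribosome of a mouse cell is built from ribosomal RNA and a set of proteins, most of which are encoded by a single functional gene each. The genes described here carry symbols of the form Rpl or Rps followed by a number, optionally with a, x, l or l1, together with Rplp0, Rplp1, Rplp2 and Rpsa. In the deposited table of 55414 gene identifiers, 86 symbols had this form. Of these, 4 were annotated as pseudogenes (Rpl32l, Rpl6l, Rps12l1 and Rps4l) and were left out, and 2 protein-coding genes, Rpl39l and Rpl10l, averaged 1.69 and 1.44 counts over the 16 libraries, short of the required mean of 10. Of the 80 genes that remained, 49 have Rpl symbols (large subunit) and 31 have Rps symbols (small subunit), a split by symbol alone. All 80 were among the 18878 genes tested. The members nearest above the minimum were Rpl24 with a mean of 44.9 counts and Rpl3l with 53.1. Rack1, Fau, Rps3a1 and Rpl36al, which also belong to the ribosome or encode ribosomal proteins, have symbols outside this form and were not members.

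The libraries were bulk RNA-seq of leukaemia-propagating cells sorted from mice, all with the same genotype, Kmt2a-AFF1+ with miR-128a overexpression, and labelled as pro-B ALL (acute lymphoblastic leukaemia). The sorted populations LSK (lineage-negative, Sca1+, cKit+, IL7R+) and LK (lineage-negative, Sca1-, cKit+, also titled LK/CLP) were each taken from the bone marrow (BM) and the central nervous system (CNS). This gave 4 groups of 4 libraries, BM LSK, CNS LSK, BM LK and CNS LK, with no library lacking the fusion gene or the microRNA transgene. The labels state comparisons by population and by niche, give no age, and do not say whether the 4 libraries of a group came from separate mice. The p-values thus set a difference against the spread between these libraries within the 4 groups, and not against a known spread between mice. Library totals ran from 19.16 to 29.23 M counts, and protein-coding genes held 43.3 to 48.5% of them. Although the disease label is pro-B, most B-lineage genes were near 0, with means over all libraries of 0.593 CPM (counts per 1 M of TMM-scaled library size) for Pax5, 0.667 for Ebf1 and 0.187 for Vpreb1, while Rag1 and Cd24a of the same list averaged 275 and 28.9 CPM. Of the T-lineage genes, Tcf7, Bcl11b and Lck averaged 577, 291 and 222 CPM, and Cd3e, Cd3d and Cd3g 0.276, 0.674 and 0.570 CPM. Summed markers of microglia ran from 4.07 to 7.10 CPM, erythroid markers from 2.51 to 4.47 CPM and myeloid markers from 3.335 to 36.5 CPM over the libraries. Of the myeloid markers, Fcgr3 alone ran from 0.934 to 32.9 CPM, and the others averaged at most 1.03 CPM. Summed neural, glial and meningeal markers ran from 34.15 to 48.3 CPM in BM LSK, 37.7 to 63.1 in CNS LSK, 39.3 to 43.35 in BM LK and 43.9 to 47.0 in CNS LK, with Mbp at a mean of 36.2 CPM and Gfap, Mog and Snap25 at 0.387, 0.117 and 0.306; their part in the results was not tested.

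Ribosomal protein genes are among the most strongly transcribed genes of dividing cells, and their products are made in matched amounts, surplus protein being degraded. Most of their mRNAs start at a C within a run of pyrimidines, the 5′ terminal oligopyrimidine (TOP) motif, through which LARP1 and mTORC1 set their translation. RNA counts read mRNA amounts and not this translational control. In blood cells, loss of 1 copy of certain members such as Rps19 or Rps14 impairs red cell formation, and free Rpl5 and Rpl11 bound to 5S ribosomal RNA hold back the p53 regulator Mdm2.

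To show the start-site motif, windows of 30 bases before to 20 bases from each annotated start were read from RefSeq promoters of build GRCm38.p6, in which 60 of the 80 members matched by symbol. Printed here are 5 members whose annotated start is a C followed by pyrimidines, with that run in capitals, and 4 members that are described below and have no such run at the annotated start.
Rps6: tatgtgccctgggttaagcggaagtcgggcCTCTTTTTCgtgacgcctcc
Rpl15: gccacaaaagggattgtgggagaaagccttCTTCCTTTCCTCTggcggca
Rps18: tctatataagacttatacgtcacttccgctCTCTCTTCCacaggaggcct
Rps27: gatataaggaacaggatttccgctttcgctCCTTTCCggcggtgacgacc
Rps10: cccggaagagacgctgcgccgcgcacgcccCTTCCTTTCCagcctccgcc
Rps27l: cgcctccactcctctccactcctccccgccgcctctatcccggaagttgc
Rpl22l1: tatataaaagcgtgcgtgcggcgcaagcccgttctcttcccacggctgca
Rpl13a: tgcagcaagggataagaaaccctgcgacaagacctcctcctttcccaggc
Rpl3l: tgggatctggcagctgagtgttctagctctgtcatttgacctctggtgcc

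On GRCm38.p6 the Rps6 window is chr4:86857348-86857397 on the minus strand and the Rps27l window is chr9:66946056-66946105 on the plus strand. A start at C with a run of at least 5 C or T was found for 13 of the 60 matched members (21.7%) and for 448 of 16522 protein-coding genes (2.7%), counting any annotated start of a gene. Within 20 bases on either side of the annotated start, a C with at least 4 pyrimidines after it was found in 47 members (78.3%) and in 50.6% of protein-coding genes. In the whole 300-base promoter, with 250 bases before the start, CCGGAAG, the core recognised by ETS factors including GABPA, was present on either strand in 24 members (40.0%, against 13.4%). AAGATGGC, which lies within the YY1 motif, was present in 6 (10%, against 3.6%), and the E-box CACGTG, bound by MYC with MAX, in 6 (10%, against 9.2%). These are matches of letters and not measured sites.

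The members' levels lay close together. Per kilobase of the principal transcript, the median member had 383.9 CPM, the interquartile range was 281.9 to 551.9 CPM, and 61 of 80 lay within 2-fold of the median. The 4 highest were Rpl41 at 973 CPM per kilobase, the acidic stalk proteins Rplp2 at 922 and Rplp1 at 904, and Rpl26 at 895. At the other end were Rpl3l at 1.62, Rps10 at 12.9, Rpl13a at 18.8, Rpl22l1 at 26.7 and Rps27l at 34.2 CPM per kilobase, and Rpl24 at 2.82. Rpl3l, Rpl22l1 and Rps27l are paralogues of other members, whereas Rps10, Rpl13a and Rpl24 each encode the only usual copy of an essential ribosomal protein.

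**Figure D1:**
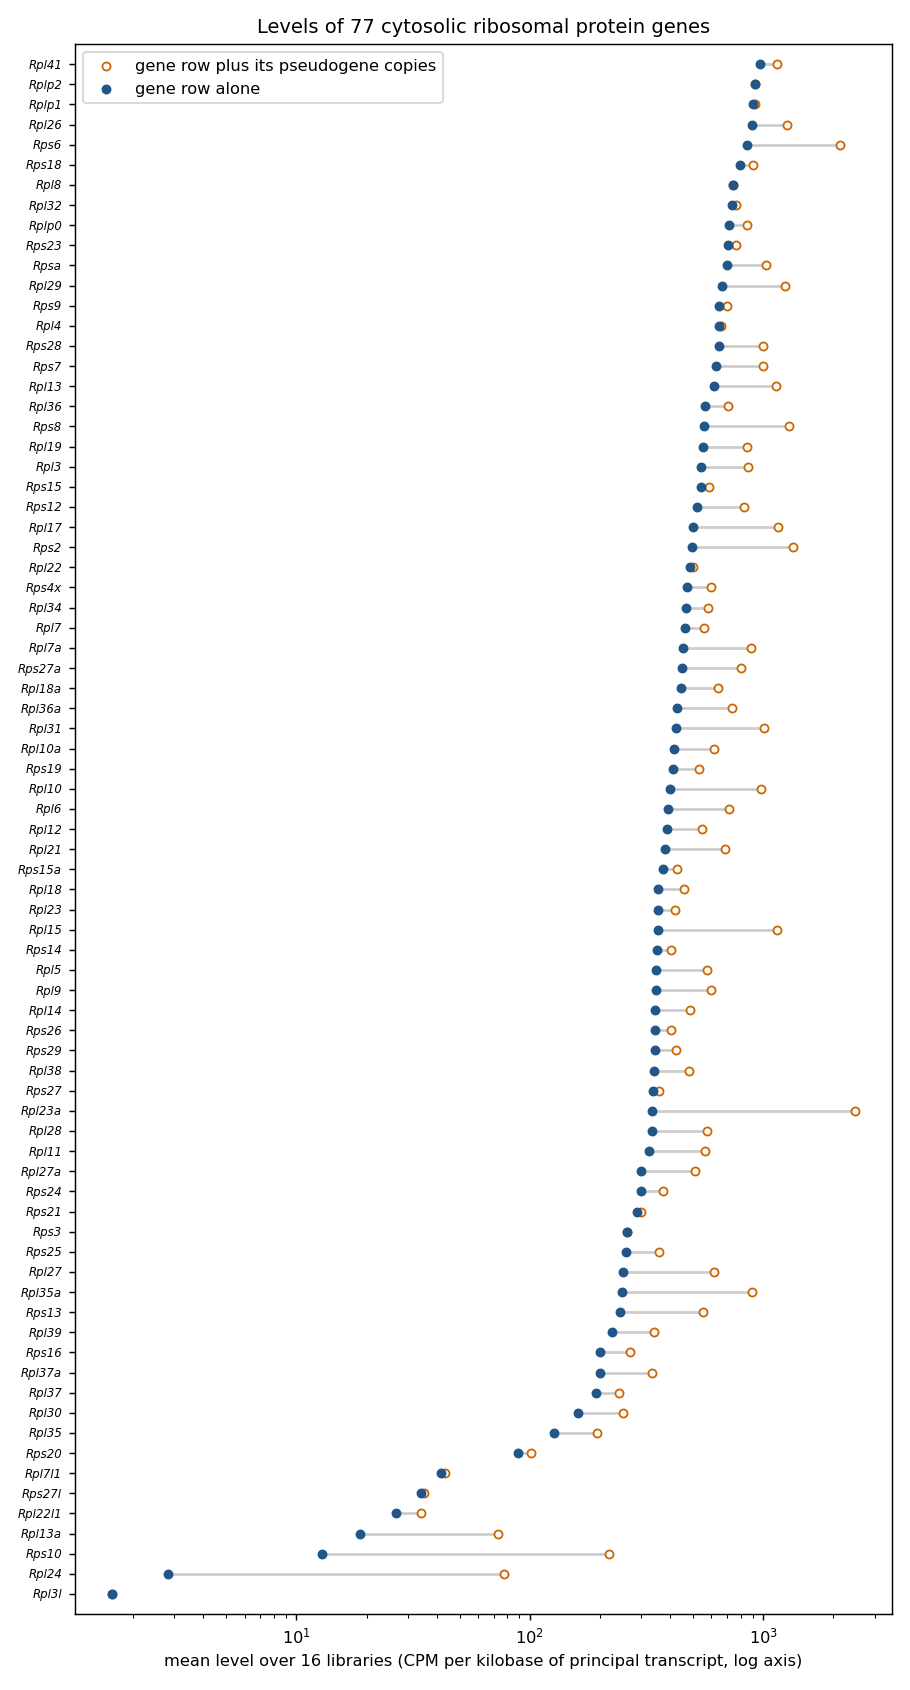
Mean level over 16 libraries for 77 of the 80 ribosomal protein genes in CPM per kilobase of principal transcript on a log axis, for the gene row alone (filled) and with the counts of its pseudogene copies added (open). Rps10, Rpl13a and Rpl24 move from 12.9, 18.8 and 2.82 to 218, 73.2 and 77.8 when their copies are added. The median of all 80 genes with copies was 590.

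The low rows of Rps10, Rpl13a and Rpl24 went with more counts on their pseudogene rows than on the gene rows. Ribosomal protein mRNAs have been copied back into the mouse genome many times, and the table counts these intronless copies as separate genes. Sequence alignment assigned 1831 pseudogenes to 79 of the 80 members, all but Rpl3l, and 663 of them averaged at least 10 counts. The copies held 34.97 to 37.69% of the joint counts of members and copies in each library. The 133 copies that were at least 99% identical to their member held 65.1% of all counts on copies, while the 1237 copies under 95% identity held 3.85%. For 14 members the copies held more counts than the gene itself, with 96.4% of the joint count for Rpl24, 94.1% for Rps10, 86.5% for Rpl23a, 74.3% for Rpl13a, 72.2% for Rpl35a, 69.1% for Rpl15, 63.0% for Rps2 and 59.9% for Rps6. With copies added, Rps10, Rpl24 and Rpl13a still ranked 72, 75 and 76 of the 80 members per kilobase. They stood at 218, 77.8 and 73.2 CPM per kilobase, where the members' median with copies was 590. For 16 members, among them Rplp1, Rplp2, Rpl8, Rps3 and the paralogues Rps27l and Rpl3l, copies held under 10%. The aligner and the handling of reads that map to several places are not given in the sources used here, so levels of members with near-identical copies are uncertain, and reads from gene and copy cannot be told apart where the letters are the same.

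The coding sequences below show how little separates gene and copy. Each pair gives 60 bases of the member's coding sequence and the aligned bases of its most counted copy. Rps6-ps4 is of the class at least 99% identical, which held most of the counts on copies. Rps10-ps2, at 98.99%, is of the class from 98 to under 99%, which held 20.3%. The stretch is the one with most differences, which are in capitals.
Rps6: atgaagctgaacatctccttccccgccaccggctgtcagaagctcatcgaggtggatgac
Rps6-ps4: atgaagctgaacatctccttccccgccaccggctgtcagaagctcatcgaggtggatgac
Rps10: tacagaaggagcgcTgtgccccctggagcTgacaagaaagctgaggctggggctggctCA
Rps10-ps2: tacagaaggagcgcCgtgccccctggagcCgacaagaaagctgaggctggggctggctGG

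On GRCm38, Rps6 lies on chromosome 4 and Rps6-ps4 on chromosome 2, and Rps10 on chromosome 17 and Rps10-ps2 on chromosome 16. Rps6-ps4 had 0 differences over the 747 coding bases and averaged 13358 counts beside 17894 for Rps6. Rps10-ps2 had 5 differences over 495 coding bases and averaged 2070 counts beside 153 for Rps10. Gm11478, the most counted copy of Rpl13a, averaged 1170 counts beside 472 for Rpl13a. For Rps10 and Rpl13a the gene row thus carried the smaller part of the joint count.

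As a whole, the 80 genes took 5.37 to 6.17% of protein-coding counts in every library. The share was 5.795% ± 0.350 (SD, n = 4) in BM LSK, 5.605% ± 0.191 in CNS LSK, 5.696% ± 0.262 in BM LK and 5.896% ± 0.210 in CNS LK, so the group means differed by less than the spread within BM LSK. In bulk samples, a lower level in each cell and fewer cells with a high level cannot be told apart. The libraries were 6.03, 5.53, 6.16 and 5.465% for BM LSK 1 to 4, and 5.41, 5.835, 5.68 and 5.50% for CNS LSK 1 to 4. They were 5.87, 5.37, 5.94 and 5.60% for BM LK 1 to 4, and 6.17, 5.69, 5.94 and 5.78% for CNS LK 1 to 4. BM LSK 3, CNS LK 1 and BM LSK 1 were the 3 highest, BM LK 2 and CNS LSK 1 the 2 lowest, and the ranges of all 4 groups overlapped.

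Per gene, the libraries differed by a common shift of most members. The median over members of log2 CPM minus the gene's mean over all libraries was highest in BM LSK 3 (0.16), CNS LK 1 (0.097) and BM LSK 1 (0.091) and lowest in BM LK 2 (-0.12) and CNS LSK 1 (-0.10), with a pooled SD within groups of 0.076. In the other protein-coding genes with principal transcripts under 1000 bases and at least 1000 counts, the same median was 0.16 in BM LSK 3, 0.14 in BM LSK 1, 0.036 in CNS LK 1, -0.14 in BM LK 2 and -0.071 in CNS LSK 1. It was also 0.14 in CNS LSK 4, where the members' median was -0.064. In 76 mitochondrial ribosomal protein genes it was 0.033, 0.026, -0.030, -0.0048 and -0.16 in those first 5 libraries. The part of short transcripts in the members' shift was not tested.

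**Figure D2:**
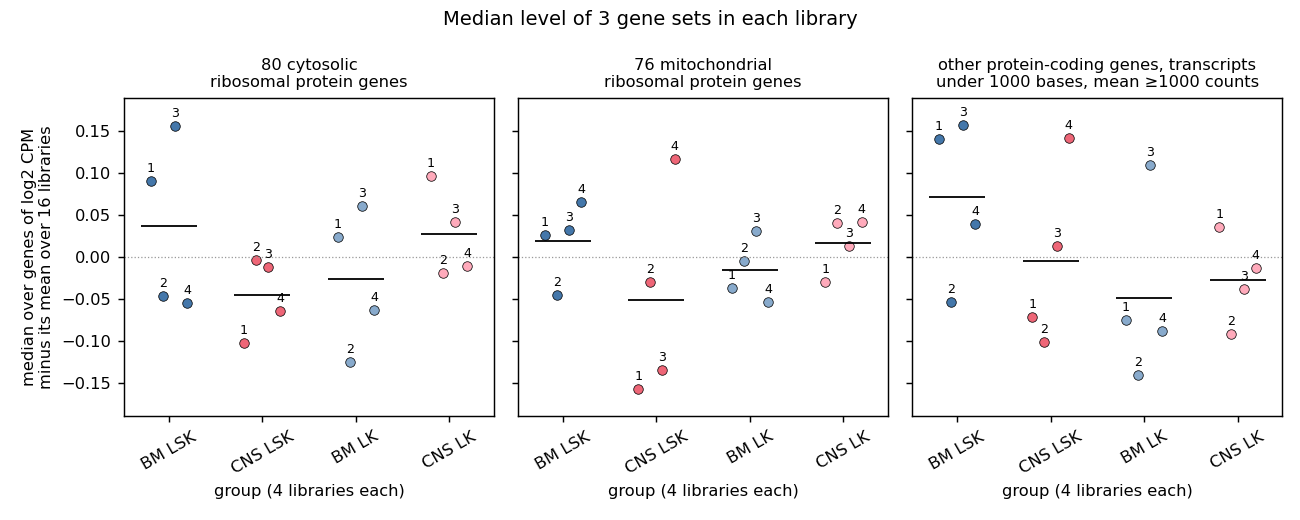
Median over genes of log2 CPM minus the gene's mean over 16 libraries, for ribosomal protein genes, mitochondrial ribosomal protein genes and other genes with short transcripts. Points are libraries numbered within their group and lines are group means; ribosomal protein genes run from -0.12 in BM LK 2 to 0.16 in BM LSK 3.

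The members varied little from library to library, about as little as other well-counted protein-coding genes. The SD of log2 CPM over the 16 libraries had a median of 0.105 over the 80 members, 0.0989 over the 74 members averaging 1000 counts or more, 0.109 over 2455 other protein-coding genes of at least 1000 counts, and 0.150 over the mitochondrial ribosomal protein genes. After subtracting the members' own median in each library, the genes with the narrowest spread were Rpl23 (SD 0.037), Rpl14 (0.041) and Rps26 (0.043). Among members with at least 50 counts the widest were Rpl3l (0.53), Rps27l (0.24) and Rpl13a (0.18). Rpl23, a large-subunit protein, ran only from 336 CPM in BM LK 2 to 424 CPM in BM LSK 3.

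The niche comparison asked how the levels of CNS cells differed from those of marrow cells of the same population. Within LSK cells most ribosomal protein genes had slightly lower fitted values in the CNS, but no member passed the test. The median log2 change, CNS minus BM, was -0.083, a difference of -5.58%, with 76 of 80 genes below 0. Of all genes tested, 48.7% had a change below 0 and the median was 0.0056. The members' median deviation by library, described above, had group means of 0.037 in BM LSK and -0.046 in CNS LSK. For 2323 other protein-coding genes with at least 1000 counts and transcripts of at least 1000 bases, these means were 0.022 and -0.033. In BM and CNS LK they were 0.017 and -0.0026, beside -0.026 and 0.027 for the members. The part of this wider shift was not tested. With edgeR's quasi-likelihood test and Benjamini-Hochberg adjustment, 0 members had an adjusted p under 0.05, as had 0% of all genes. At an unadjusted p under 0.05 there were 2 members by edgeR, Rpl3l and Rps23 (a decoding-centre protein, -0.16, SE 0.075), 3 by DESeq2 and 2 by limma, and 5.74% of all genes by edgeR. With the description code that BM and CNS libraries share as a block, 8 members and 10% of all genes had such a p, and 0 members passed adjustment. The median SE of a member's change was 0.077, close to the median change itself.

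Within LK cells the fitted changes lay on the other side of 0. The median was 0.056, a difference of 3.95%, with 72 of 80 members above 0, against 51.5% of all genes. In edgeR 0 members and 0% of all genes passed at an adjusted p under 0.05, and at an unadjusted p under 0.05 there were 0 members by edgeR and by DESeq2 and 1 by limma, against 3.99% of all genes; with the block there were 2 members, against 6.26%. When every gene with a count was kept in the fit, the LK median was 0.0068, with 43 members above and 37 below 0, and its difference from the median of all genes was -0.043. Over both populations together the median was -0.017, from -0.034 to 0.0040 without single libraries, with 29 members above and 51 below 0 (50% of all genes on each side). Here again 0 members and 0% of all genes passed in edgeR without the block. With the block 0 members passed, while some of all genes did, as counted below. An unadjusted p under 0.05 was found for 2 members by each of edgeR, DESeq2 and limma, against 9.15% of all genes. In edgeR these members were Rpl3l and Rps27l.

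The difference between the niche changes of the populations, the interaction, had a median of -0.13, and 79 of 80 members were below 0, all but Rps27l; of all genes 51.7% were below and 48.3% above 0. In edgeR 0 members and 0% of all genes passed an adjusted p of 0.05. At an unadjusted p under 0.05 there were 0 members by edgeR, 2 by DESeq2 and 1 by limma, against 1.49% of all genes. With the block there were 9, against 3.12% of all genes, and 0 passed adjustment. The lowest fitted interactions after Rpl3l (-0.46) were those of Rpl8 (-0.22, SE 0.11) and Rpl30 (-0.22, SE 0.12), each with an adjusted p of 0.9998. Because the members rise and fall together in a library, the 80 signs do not stand for 80 observations.

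The members' median change was also read in each of the 8 pairs of BM and CNS libraries that share a code in their descriptions. In LSK cells the members' median change, CNS minus BM, was -0.19 in pair 1 and -0.17 in pair 3, and 0.042 and -0.0100 in pairs 2 and 4. In LK cells it was 0.073, 0.11, -0.019 and 0.052 in pairs 1 to 4. The pairs with the lowest LSK medians, 1 and 3, hold BM LSK 1 and BM LSK 3, the marrow LSK libraries with the highest share. In the same LSK pairs 1 and 3 the other short genes changed by -0.21 and -0.14 and the mitochondrial ribosomal protein genes by -0.18 and -0.17. Without BM LSK 3 the fitted LSK median became -0.049, and the LK median became 0.020 without BM LK 2 and 0.030 without CNS LK 1.

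**Figure D3:**
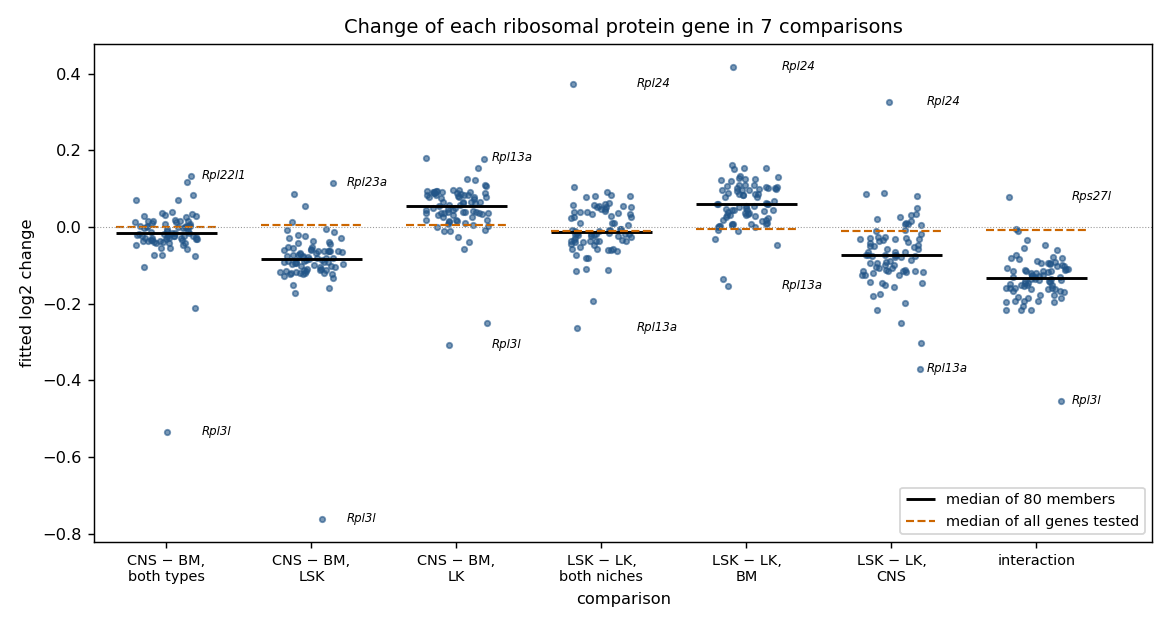
Fitted log2 change of each of the 80 members (points) in the 7 comparisons, with the median of the members (solid line) and of all genes tested (dashed line). Members' medians are -0.083 and 0.056 for the niche change in LSK and LK cells, 0.059 and -0.073 for LSK minus LK in BM and CNS, and -0.13 for the interaction, and the lowest and highest gene of each comparison is named.

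The population comparison set LSK against LK cells in the same niche. In marrow most members had slightly higher fitted values in LSK cells (median 0.059, 73 of 80 above 0, against 48.6% of all genes), and in the CNS slightly lower ones (median -0.073, 14 of 80 above and 66 below 0, against 47.8 and 52.2%). When every gene with a count was kept in the fit, the marrow median was 0.012, with 46 members above and 34 below 0, and its difference from the median of all genes was -0.039. Without BM LSK 3, BM LK 2 or BM LSK 1 the marrow median was 0.021, 0.031 or 0.037, and without BM LK 3 or BM LSK 2 it was 0.095 or 0.094. Without CNS LSK 4 or CNS LK 1 the CNS median was -0.040 or -0.049. These comparisons share their libraries with the niche comparisons above, so they show the same shifts from another side. In each niche 0 members and 0% of all genes had an adjusted p under 0.05 in edgeR. At an unadjusted p under 0.05 there were 0 members in marrow by edgeR, DESeq2 and limma, against 6.38% of all genes, and 7 in the CNS by each tool, against 6.58% of all genes. The 7 were Rpl7, Rpl7a, Rpl10, Rpl13a, Rpl27a, Rpl30 and Rps28, with log2 changes of -0.37 for Rpl13a, -0.22 for Rpl30, -0.20 for Rps28, -0.18 for Rpl10 and -0.14 to -0.16 for the others. Over both niches the median was -0.0125 (-0.030 to 0.012 without single libraries), with 33 members above and 47 below 0, against 46.8 and 53.2% of all genes. Here 0 members and 0.238% of all genes passed, and 3 members by each of edgeR, DESeq2 and limma, by edgeR Rpl13a, Rpl24 and Rpl10, had an unadjusted p under 0.05, against 12.1% of all genes.

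For 6 members all 4 CNS LSK libraries lay below all 4 CNS LK libraries, a pattern that 1.28% of all genes showed: Rpl3, Rpl7, Rpl7a, Rpl10a, Rpl13a and Rpl27a. The gaps were narrow. Rpl7a ran from 380.5 to 395.1 CPM in CNS LSK and from 411.2 to 462.8 in CNS LK, whereas Rpl3 ended at 722.6 in CNS LSK and began at 726.3 in CNS LK. For 3 members, Rpl7a, Rpl10 and Rpl3l, all CNS LSK libraries also lay below all BM LSK libraries, against 1.59% of all genes. No member had the reverse order in either comparison (background 2.37 and 2.09%). In LK cells between niches 0 members were apart in either direction (1.37 and 0.81% of all genes), and likewise 0 between populations in marrow (1.49 and 1.64%).

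Rpl13a (ENSMUSG00000074129) had the smallest p of all members. Its product is a large-subunit protein that can leave the ribosome to silence inflammatory mRNAs in myeloid cells. In LSK cells it was at 21, 17.4, 16.3 and 17.9 CPM in BM libraries 1 to 4 and at 20.45, 16.2, 18.3 and 15.8 CPM in the CNS. In LK cells it was at 19.4, 19.9, 19.3 and 22.1 CPM in BM and at 23.0, 21.75, 20.6 and 25.9 CPM in the CNS. The LSK and LK libraries overlapped in marrow and not in the CNS. Over both niches the change, LSK minus LK, was -0.26 (SE 0.072, edgeR adjusted p = 0.143), and in the CNS it was -0.37 (SE 0.10, edgeR adjusted p = 0.655).

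The pseudogene rows of Rpl13a gave other values. Its most counted copy, Gm11478, changed by 0.12 (SE 0.079) over both niches, and with all copies added to the Rpl13a count the change was 0.0025 (SE 0.061, edgeR adjusted p = 0.992). For Rps10, a small-subunit protein near the mRNA entry, the row gave -0.19 (SE 0.093, edgeR adjusted p = 0.414) at 4.76 to 7.78 CPM, and 0.060 (SE 0.059) with its copies. Rpl24, named for its low count and outside the naming rule, gave 0.37 (SE 0.16, edgeR adjusted p = 0.378) at 1.29 to 3.14 CPM, and 0.045 (SE 0.051) with copies. The 73 copies of at least 99% identity and at least 1000 counts had medians near those of the members, -0.079 and 0.040 for the niche change in LSK and LK cells and -0.11 for the interaction. Reads of such copies and their members can hardly be told apart, so these medians are no independent check of the members'.

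The paralogues that replace a standard member under special conditions were present at a small fraction of it. Rpl22 restrains p53-dependent death of developing T cells and its loss raises Rpl22l1, which can take its place in the ribosome. Rpl22l1 (ENSMUSG00000039221) was at 14.3 ± 0.779 CPM in BM LSK, 15.2 ± 1.19 in CNS LSK, 13.8 ± 3.07 in BM LK and 15.6 ± 2.11 in CNS LK (mean ± SD, n = 4), while Rpl22 was at 242 ± 26.5, 232 ± 8.40, 221 ± 15.1 and 227 ± 8.44 CPM. Per kilobase, Rpl22l1 stood at 5.505% of Rpl22 over all libraries, from 4.50 to 6.79%. Its niche change over both populations was the highest among named members, 0.13 (SE 0.092, edgeR adjusted p = 0.730), and the libraries of all groups overlapped.

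Rps27l (ENSMUSG00000036781), a p53-inducible relative of Rps27, stood at 10.3% of Rps27 per kilobase. It was at 19.6, 18.75, 18.05 and 17.1 CPM in BM LSK 1 to 4 and at 15.3, 17.7, 14.55 and 17.7 CPM in CNS LSK. In BM LK it was at 18.6, 19.3, 16.8 and 18.4 CPM, and in CNS LK at 11.4, 17.2, 13.5 and 19.1 CPM. The CNS libraries of both populations reached lower than the marrow ones but overlapped them. The fitted change over both populations was -0.21 (SE 0.087, edgeR adjusted p = 0.490). Rps27 itself changed by -0.074 (SE 0.061).

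Rpl3l (ENSMUSG00000002500), the striated-muscle form of Rpl3, stood at 0.296% of Rpl3 per kilobase. In LSK cells it was at 2.23, 3.07, 2.045 and 3.69 CPM in BM and at 1.302, 1.89, 1.66 and 1.68 CPM in the CNS, so the groups did not overlap. In LK cells it ran from 1.61 to 3.64 CPM in BM and from 0.847 to 2.75 CPM in the CNS, which did overlap. Its niche change in LSK cells was -0.76 (SE 0.31, edgeR adjusted p = 0.855), the largest of any member and on a mean of 53.1 counts.

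**Figure D4:**
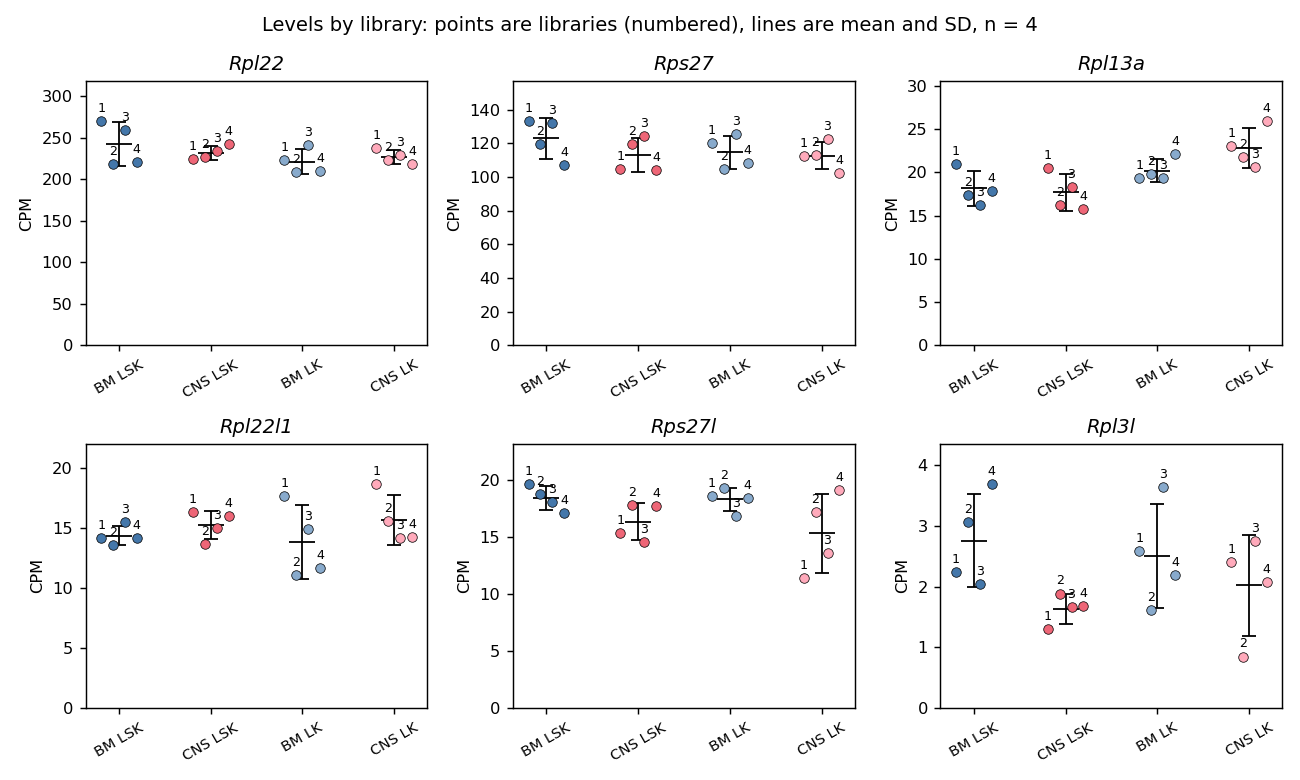
CPM by library for Rpl22, Rps27 and Rpl13a (upper row) and for the paralogues Rpl22l1, Rps27l and Rpl3l (lower row); points are libraries, bars are mean and SD, n = 4, and each axis starts at 0. Rpl13a is lower in all 4 CNS LSK libraries (15.8 to 20.45) than in the CNS LK libraries (20.6 to 25.9), and Rpl3l is lower in the CNS than in marrow LSK cells.

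The remaining members with a defined role are given by their levels. The P-stalk, which recruits elongation factors to the ribosome, had Rplp0 at 1005 ± 72.2, 958 ± 121, 932 ± 102 and 976 ± 78.9 CPM in BM LSK, CNS LSK, BM LK and CNS LK. In the same order Rplp1 was at 479.5 ± 60.4, 441.5 ± 56.5, 432 ± 55.6 and 451 ± 62.25 CPM, and the ranges of all groups overlapped. Rpl5 and Rpl11, which carry 5S ribosomal RNA, ran from 657 to 795 CPM and from 249 to 294 CPM over the 16 libraries. Rps6, the S6 kinase substrate, ran from 686 to 836 CPM and Rps19, needed for small-subunit maturation, from 229 to 313 CPM. Rpsa, which is also called the laminin receptor, was the member with most counts, from 947 CPM in CNS LSK 1 to 1272 CPM in BM LSK 3. None of these had an adjusted p under 0.05 in edgeR in any of the 7 comparisons. Rpl10, which joins the large subunit late in its assembly and is mutated in T-cell leukaemia, was at 319 ± 7.14 and 294 ± 21.55 CPM in BM and CNS LSK and at 330 ± 24.04 and 332 ± 25.7 CPM in BM and CNS LK.

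Some members stood apart from the common shift in library CNS LSK 4. In that library Rpl37 was at 219 CPM beside 137 to 167 in the other CNS LSK libraries, Rpl23a at 238 beside 167 to 202, and Rpl29 at 460 beside 341 to 409. Rpl41, Rpl10 and Rpl30 went the other way and were lowest there, with Rpl41 at 345 CPM beside 402 to 442. In LSK cells the niche change was 0.12 (SE 0.093) for Rpl23a and 0.054 (SE 0.12) for Rpl37, and without CNS LSK 4 it was 0.039 and -0.082.

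The other genes of the translation machinery were read in the same fits, and 0 of the 200 genes tested from 7 lists had an adjusted p under 0.05 in edgeR, DESeq2 or limma in any comparison. At an unadjusted p under 0.05 there were 3 to 8 of them in each comparison by edgeR, 3 to 8 by DESeq2 and 2 to 7 by limma, where edgeR gave 1.49 to 12.1% of all genes. Of all genes, 48.7% were below 0 for the niche change in LSK and 48.5% in LK cells. Within LSK cells, CNS minus BM, 14 of 15 elongation factors and other TOP genes were below 0 (median -0.083), as were 27 of 29 initiation factors (-0.082), 28 of 36 ribosome biogenesis genes (-0.060), all 9 snoRNA host genes tested (-0.12) and 62 of 76 mitochondrial ribosomal protein genes (-0.066). In LK cells 11 of 15 elongation factors and TOP genes (0.034) and 49 of 76 mitochondrial ribosomal protein genes (0.025) were above 0, whereas 24 of 29 initiation factors (-0.027) and 27 of 36 biogenesis genes (-0.033) were below 0. Of 15 genes for RNA polymerase I and 5S supply, 11 were below 0 in LSK and 12 in LK cells. Of the 20 genes tested from a mixed list of mTORC1, LARP1, S6 kinase, MYC and p53 genes, 17 and 12 were below 0. Eef1a1, which brings aminoacyl-tRNA to the ribosome and is itself a TOP mRNA, was at 3281 ± 122.5 CPM in BM LSK and 3078 ± 147 in CNS LSK. Rack1, a scaffold on the small subunit, was at 576 ± 37.6 and 539 ± 34.2 CPM in those groups and at 545 ± 39.4 and 565 ± 43.1 CPM in BM and CNS LK.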

How the data were processed

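The deposited table holds counts per Ensembl gene for 16 libraries made with a stranded total-RNA kit, per the labels' protocols. Its name says normalised, but its values are whole numbers with library totals from 19.16 to 29.23 M, so they were used as counts; the submitters' processing notes name GRCm39 and DESeq2. Symbols, biotypes and transcript lengths came from GENCODE annotation of GRCm38 by gene identifier (52081 of 55414 matched; the 3333 others held 41.8% of counts and stayed in the library sizes). Genes with a mean of at least 10 counts were fitted with edgeR 4.0.16 (TMM, quasi-likelihood, 4 group means, no block), with Benjamini-Hochberg adjustment over all genes tested and a threshold of 0.05. The fitting was tested on simulated data. Copies were assigned with blastn at 80% identity over 70% of the copy. Replicates differed beyond counting noise (chi-square per degree of freedom 11.0 to 42.4). Members and lists were chosen with earlier results of these data known. Named genes were, among members with at least 50 counts, the 3 highest and 3 lowest changes per comparison, the 5 highest and lowest levels per length, the 3 widest and narrowest deviations, and genes fixed by role. Some genes, a sequence and 1 alternative of the share are not reported here.

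The description codes pair each CNS library with a BM library of the same population. With log2(CPM + 1), deviations of all 8 pairs correlated above 0.1 (0.172 to 0.393). Without the pseudocount, over genes with a count in every library, 5 of 8 did (lowest -0.067). Over genes averaging at least 50 counts, all 8 did, from 0.364 to 0.632 with the pseudocount and from 0.335 to 0.616 without it. With the pseudocount, all 8 pairs correlated best with their own partner at a minimum of 10 and of 50 counts. The pseudocount was chosen after the 5 of 8 were seen, and no call of a member depends on the pairing. Alternatives were DESeq2 1.42.0, limma 3.58.1 on log2(CPM + 1), other scalings and filters, replicate blocks and leaving out each library; adding copies was chosen after seeing the data.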

Additional observations from a re-analysis of the deposited data

Results flagged for a closer look

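In 140 groups of 4 libraries examined, 3 had 1 library far from the other 3, where chance gives about 7. Rpl3 was at 726.3 CPM in CNS LK 2 beside 759.6 to 765.8 in the other CNS LK libraries. Rps25 was at 141.6 CPM in BM LK 2 beside 154.4 to 156.0 in the other BM LK libraries. Rpsa was at 1148 CPM in BM LK 3 beside 1045 to 1061 in the other BM LK libraries. Rpl30 was lower in the CNS library of every LSK pair (mean log2 change -0.13) and higher in that of every LK pair (0.094), a difference of -0.22. It was the only such gene among 33 named members; opposite directions in all pairs were shown by 3 of the 80 members, and by 94 of all genes tested (0.498%). Members of a library share its shift. The interaction test of Rpl30 in edgeR gave an adjusted p of 0.9998.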

How the results depend on the processing

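With 4 libraries a group and a median SE of 0.077 for a change within a population, changes of the size of the members' medians could not be called for single genes. The count of members called was 0 in all 7 comparisons under every scaling, filter, tool, block and left-out library run, except that with every gene with a count kept, 1 member, Rpl13a, passed for LSK minus LK over both niches (-0.32, edgeR adjusted p = 0.0323). That filter moved the median of all genes to 0.15 and 0.12 for CNS minus BM over both populations and in LSK, and to 0.14 and 0.11 for LSK minus LK over both niches and in the CNS; the members' medians were -0.075, -0.15, -0.070 and -0.14, and relative to all genes -0.23, -0.27, -0.21 and -0.25. For CNS minus BM in LK and LSK minus LK in BM, the members' medians relative to all genes turned from 0.051 and 0.065 to -0.043 and -0.039. Calls among all genes for LSK minus LK over both niches, 45 in edgeR, were 222 with DESeq2, 290 with that filter and 15 to 138 without single libraries. For CNS minus BM over both populations, in LSK and in LK, that filter gave 85, 10 and 14, and for LSK minus LK in BM and CNS 48 and 38; DESeq2 gave 40 for CNS minus BM over both populations and 39 and 6 for LSK minus LK in BM and CNS, against 0 in edgeR.

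The description code as a replicate block gave 126, 26 and 12 calls among all genes for CNS minus BM over both populations, in LSK and in LK, against 0 without it. It called 0 members, with medians of -0.017, -0.081 and 0.054. The title number as a block gave 162 against 45 calls for LSK minus LK over both niches and 0 members. Of such pairs, 4 of 8 correlated above 0.1 at a minimum of 10 counts and 6 of 8 at 50. At these minimums 5 and 8 of them correlated best with their own partner. The description codes of such pairs begin alike.

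Leaving out each library in turn gave members' medians of -0.11 to -0.049 for the niche change in LSK, 0.020 to 0.083 in LK, -0.034 to 0.0040 over both, 0.021 to 0.095 and -0.088 to -0.040 for LSK minus LK in BM and CNS, -0.030 to 0.012 over both niches, and -0.16 to -0.090 for the interaction.

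As a percent of all counts the shares were 2.689, 2.623, 2.576 and 2.635 in BM LSK, CNS LSK, BM LK and CNS LK. With pseudogene rows named after members added to the members only, and the protein-coding total kept as divisor, the ratios were 7.117, 6.892, 7.035 and 7.252%. Leaving out a library gave shares of 5.675 to 5.905%, 5.528 to 5.671%, 5.613 to 5.805% and 5.804 to 5.964% in the 4 groups.

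Of values for named genes, 920 kept their direction and side of the threshold and 22 reversed. With copies added, LSK minus LK became 0.0025 for Rpl13a and 0.060 for Rps10 over both niches, 0.067 and 0.15 in BM, and -0.024 for Rpl23a in the CNS. With protein-coding genes only, the interaction of Rpl23a became 0.011. With every gene with a count, the niche change of Rpl37 in LSK became -0.012. Leaving out a library gave -0.082 to 0.14 for it, -0.037 to 0.18 for Rpl37 and -0.028 to 0.22 for Rps27l in LSK minus LK in the CNS, -0.017 to 0.38 for Rpl3l in BM, and -0.081 to 0.074 and -0.034 to 0.21 for the interactions of Rpl23a and Rps27l. The cause was not tested.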

Other observations

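Genes of the p53 pathway, which free ribosomal proteins can engage, were read as values. Mdm2, which Rpl5 and Rpl11 bind, was at 37.3 ± 2.61, 36.0 ± 2.23, 40.2 ± 2.68 and 39.2 ± 1.40 CPM in BM LSK, CNS LSK, BM LK and CNS LK (mean ± SD, n = 4), and Trp53 was at 78.6 ± 4.04, 79.4 ± 8.37, 77.25 ± 5.67 and 74.9 ± 7.37 CPM. The p53 target Cdkn1a was at 2.35 ± 1.94, 1.04 ± 0.711, 1.58 ± 1.54 and 0.435 ± 0.293 CPM in that order. Its change, CNS minus BM over both populations, was -1.504 (SE 0.55, edgeR adjusted p = 0.429). In that comparison 17 of the 20 genes tested from the mixed list that holds Cdkn1a had fitted values below 0. So had 51 of the 80 members and 50% of all genes. Activity of the pathway was not tested.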
